A study of Mus musculus with 6 samples.

Results

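Adipose tissue macrophage genes, 41 by name, were followed in inguinal fat of mice on a high-fat diet, wild type (WT) or with a knockout of Naa10 (Naa10-KO). Members were taken by gene symbol, each through 1 probe set, the one of highest mean signal among those annotated to that gene only. Of the 41 names, 40 were measured, out of 18193 genes in all. The name Lpl2 had no probe set and was not analysed here. Both groups were male mice, 3 WT and 3 Naa10-KO, put on a diet with fat as 60% of calories at 6 weeks of age. After 15 weeks of it they spent 4 h at 4 °C, and the inguinal white adipose tissue was removed. Naa10 encodes the enzyme subunit that acetylates the N-terminus of many new proteins. The strain and the cells in which Naa10 was deleted are not given in the sources used here, and Naa10 itself was not analysed, so the genotype labels were not checked against the targeted transcript. Each mouse gave 1 Affymetrix Mouse Genome 430 2.0 array, and values are log2 signals as the authors deposited them.

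Macrophages are the most abundant immune cells of obese fat. One population gathers around dying adipocytes, takes up their lipid and carries Trem2, Cd9 and Gpnmb at high levels. Another lies along vessels and between adipocytes in lean and obese fat and carries the mannose receptor Mrc1, often with the hyaluronan receptor Lyve1. The arrays measured whole fat, so fewer macrophages and less RNA per macrophage cannot be told apart in any value below.

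The tissue carried the markers of both adipocytes and macrophages. All 6 measured white adipocyte markers and all 7 macrophage markers lay above the median of all probe set values (5.86 on the log2 scale, used here as a mark for low signal) on all 6 arrays. Summed over the list on the linear scale, macrophage markers came to 31993 to 37230 on WT arrays and 34423 to 41686 on Naa10-KO arrays. Adipocyte markers came to 159569 to 197188 and 163313 to 190217. Skeletal muscle markers had all 10 means higher in Naa10-KO, with sums of 8192 to 18616 on WT arrays and 66861 to 88898 on Naa10-KO arrays. In 9 of the 10, every Naa10-KO array lay above every WT array, against 10.0% of all genes. Pvalb among them, at 3.92, was the only gene of these cell type lists to pass the test (limma adjusted p = 0.0409). Neutrophil markers had sums of 4364 to 6532 on WT arrays and 1691 to 3177 on Naa10-KO arrays. Of their 6 means 4 were higher in Naa10-KO, whereas S100a8 differed by -1.38 (limma adjusted p = 0.414). Fibroblast and progenitor markers had sums of 34999 to 36874 and 38885 to 47517, with 4 of 6 means higher. Pdgfra differed by 0.60 (limma adjusted p = 0.476) and Col1a1 by -1.18 (adjusted p = 0.621), each without overlap. Dcn had the highest signals of that list (means 14.77 in WT and 15.08 in Naa10-KO) and so weighed most in the sums. The mean log2 signal of the list overlapped, at 11.06 to 11.10 on WT arrays and 10.83 to 11.31 on Naa10-KO arrays. The sums for B cells, T cells, dendritic cells and mast cells overlapped between genotypes. The part of these cell types in the values below was not tested. Control probe sets for Gapdh, which compare the 3' with the 5' end of the transcript and so follow RNA quality, gave a log2 difference of 0.55 on Naa10-KO replicate 1 and -0.27 to 0.01 on the other 5 arrays. The same controls for Actb gave 2.07 on Naa10-KO replicate 1 and 1.42 to 1.85 on the other 5.

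No macrophage gene passed the test between genotypes. In limma over all 18193 genes, 0 of 40 members were called at an adjusted p of 0.05, against 0.115% of all genes, and 2 members had an unadjusted p under 0.05, against 9.20% of all genes. Their adjusted p-values ran from 0.377 to 0.993. The median log2 difference (Naa10-KO minus WT) was -0.02 over the members and 0.01 over all genes. Means were higher in Naa10-KO for 19 members and lower for 21. In 0 of the 40 did every Naa10-KO array exceed every WT array, against 10.0% of all genes. In 3 members (7.50%) every Naa10-KO array lay below every WT array, a share near the 8.14% of all genes. Without overlap in either direction, the share was 7.50% of members and 18.1% of all genes. With 1 array left out the members without overlap numbered 4, 4 and 11 for WT replicates 1, 2 and 3, against 27.7%, 26.1% and 31.7% of all genes in the same designs. For Naa10-KO replicates 1, 2 and 3 they numbered 9, 10 and 12, against 25.6%, 27.7% and 31.3%, so no share of the 40 exceeded that of all genes.

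**Figure D1:**
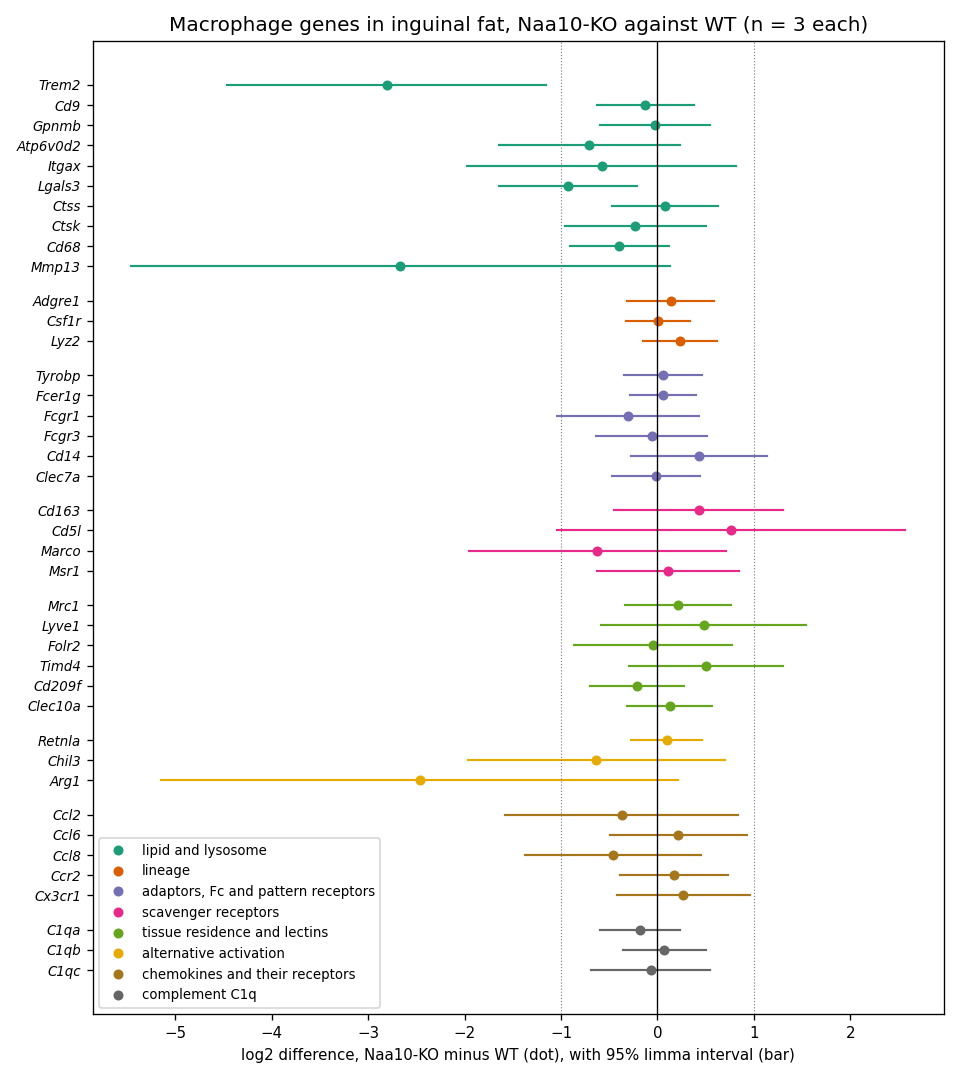
The log2 difference between Naa10-KO and WT fat is plotted for each of the 40 measured macrophage genes, with bars for the 95% limma interval, colours for role groups and dotted lines at a 2-fold difference either way. Of the 40 intervals, 38 include 0, and the exceptions are Trem2 and Lgals3.

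The size of difference that 3 arrays per genotype could leave unseen varied among members. For 24 of 40 the 95% interval of the difference lay within 2-fold either way (60.0%, against 49.3% of all genes). Among genes whose mean reached the mark for low signal, this held for 23 of 35 members (65.7%) and 76.1% of all 11359 such genes. Members with higher signals had the narrower intervals for the most part, whereas Trem2, Mmp13, Arg1 and Cd5l, at the low end, had intervals spanning more than 3 log2 units.

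**Figure D2:**
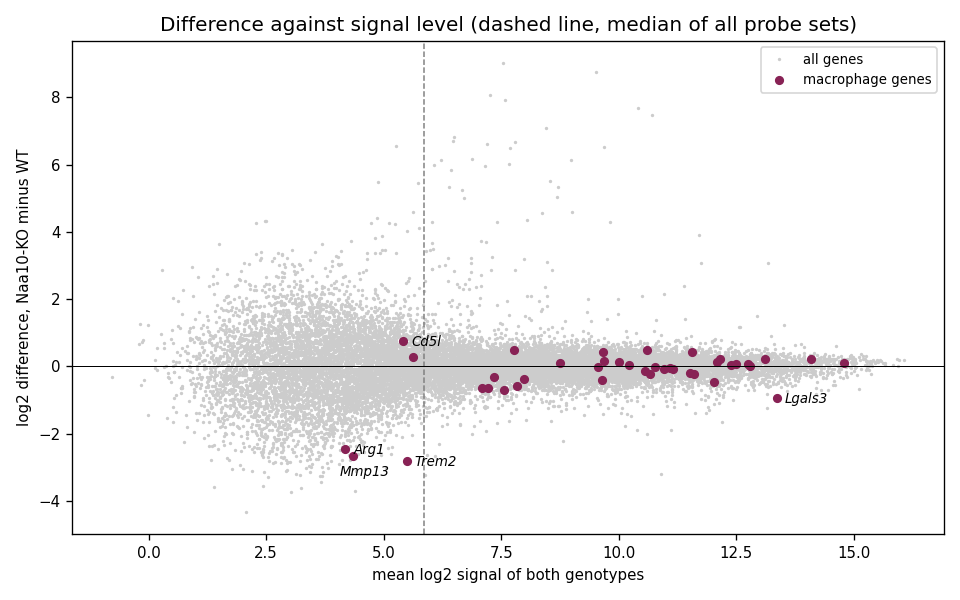
The log2 difference is plotted against the mean log2 signal of both genotypes, for all 18193 genes in grey and the 40 macrophage genes in purple, with a dashed line at the median of all probe sets. Trem2, Mmp13 and Arg1 lie left of that line, where genes scatter widely, and Lgals3 lies to the right, at a mean difference of -0.92.

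Genes carried by most tissue macrophages were at similar levels in both genotypes. Csf1r, the receptor for the growth factor on which macrophages depend, averaged 12.79 ± 0.09 (SD, n = 3) in WT and 12.79 ± 0.06 in Naa10-KO. The log2 difference was 0.01, with a 95% interval of -0.33 to 0.34. Its 2 other probe sets differed by 0.02 and 0.15. In the one at 0.15, every Naa10-KO array lay above every WT array (limma adjusted p = 0.803 over all probe sets). Adgre1, which encodes the F4/80 antigen, differed by 0.14 (interval -0.31 to 0.59). Lyz2, the lysozyme of myeloid cells, was at 14.06, 13.99 and 13.90 on the WT arrays and 14.35, 14.28 and 14.03 on the Naa10-KO arrays. The lowest Naa10-KO array of Lyz2 lay below the highest WT array, so the groups overlapped, and its difference of 0.24 did not pass (SE 0.15, limma adjusted p = 0.660). For these genes, differences of 2-fold lay outside the interval.

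Cd68, a glycoprotein of macrophage lysosomes, had a lower mean in Naa10-KO. It was at 9.90, 9.82 and 9.77 in WT and 9.15, 9.78 and 9.39 in Naa10-KO, where only replicate 2 reached the WT range. The log2 difference was -0.39 (SE 0.20, limma adjusted p = 0.602). The mean of 5 general genes, Adgre1, Cd68, Csf1r, Tyrobp and Fcer1g, was 11.02 ± 0.11 in WT and 11.00 ± 0.10 in Naa10-KO, a difference of -0.03.

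Genes of lipid-laden macrophages and their lysosomes mostly had lower means in Naa10-KO, although none was called. Of the 10 measured, Cd68 among them, 9 means were lower, with a median log2 difference of -0.49 against 0.01 over all genes. Means were lower for 8844 of all 18193 genes. All 3 members whose groups did not overlap (Trem2, Lgals3 and Mmp13) were in this group. They made up 30.0% of its 10 genes and 7.50% of the 40 members, against 8.14% of all genes with every Naa10-KO array below WT. In Trem2 and Mmp13 all Naa10-KO arrays lay below the mark for low signal.

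Trem2, a lipid receptor that signals through the adaptor Tyrobp, was at 6.30, 7.16 and 7.21 in WT and at 2.77, 4.39 and 5.10 in Naa10-KO. Every Naa10-KO array lay below every WT array, and all 3 lay below the mark for low signal. The log2 difference was -2.80 (SE 0.66, 95% interval -4.46 to -1.15), and its limma adjusted p of 0.377 did not pass. With low values raised to the mark, the difference was -1.03. A second Trem2 probe set went the other way, with means of 4.61 ± 0.84 for WT and 5.30 ± 0.53 for Naa10-KO. Its log2 difference was 0.69 (SE 0.51), and every array of both genotypes lay below the mark. The direction for Trem2 therefore differs between its probe sets, but the second gave only low signals. The first carries the suffix s_at, which Affymetrix uses where probes can match more than 1 transcript.

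Cd9, a tetraspanin of many cell types, did not share the low Naa10-KO values of that Trem2 probe set. It was at 10.84, 10.71 and 10.28 in WT and 10.53, 10.35 and 10.58 in Naa10-KO, with WT replicate 3 the lowest of all. The log2 difference was -0.13 (SE 0.20, 95% interval -0.63 to 0.37). Gpnmb, a glycoprotein of lysosomes that marks lipid-laden macrophages, was at 9.54, 9.63 and 9.56 in WT and 9.53, 9.94 and 9.18 in Naa10-KO. WT arrays of Gpnmb lay within the range of the Naa10-KO arrays, and the difference was -0.03 (SE 0.23, 95% interval -0.60 to 0.54). Its second probe set, below the mark on all WT arrays, differed by 0.77 (SE 0.99). For Cd9 and Gpnmb, a 2-fold difference lay outside the interval.

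Lgals3, or galectin-3, a sugar-binding protein that macrophages secrete and that marks damaged lysosomes, had the clearest separation at high signal. It was at 14.08, 13.98 and 13.39 in WT and 12.49, 13.14 and 13.07 in Naa10-KO. All Naa10-KO arrays lay below all WT arrays, by a narrow gap at WT replicate 3. The difference was -0.92 (SE 0.28), which is 1.90-fold lower in Naa10-KO, and did not pass (limma adjusted p = 0.490). Atp6v0d2, a subunit of the proton pump of lysosomes in macrophages and osteoclasts, was at 8.09, 8.32 and 7.32 in WT and 6.91, 7.76 and 6.95 in Naa10-KO. Naa10-KO replicate 2 lay above WT replicate 3. Its 2 probe sets differed by -0.71 (SE 0.37) and -0.64 (SE 0.22), the same direction. In the second, every Naa10-KO array lay below every WT array (limma adjusted p = 0.584 over all probe sets).

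Mmp13, a collagenase, was at 5.39, 5.24 and 6.41 in WT and 0.59, 3.91 and 4.54 in Naa10-KO. The groups did not overlap, but only WT replicate 3 exceeded the mark for low signal. Its difference of -2.66 (SE 1.11) became -1.45 without Naa10-KO replicate 1 and -0.18 with low values raised to the mark. Of the remaining members of this group, Itgax, which encodes the integrin CD11c, differed by -0.58 (SE 0.55), with Naa10-KO replicate 1 at 6.44 below the other arrays. The cathepsins Ctss and Ctsk, proteases of the lysosome, differed by 0.08 and -0.23.

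**Figure D3:**
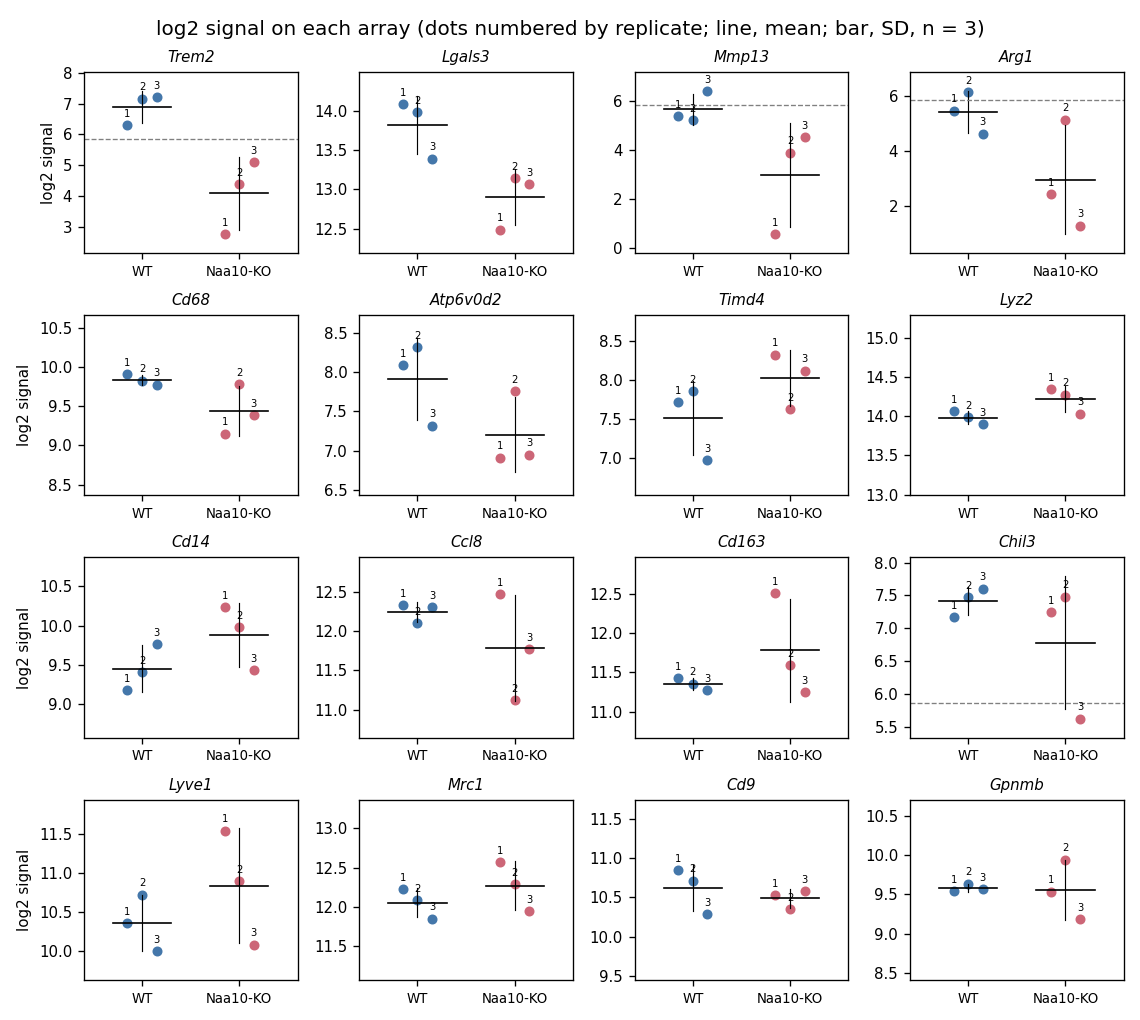
The log2 signal on each array is plotted for 16 macrophage genes, ordered by unadjusted p, with WT in blue, Naa10-KO in red, a line for the mean, a bar for the SD and a dashed line for the median of all probe sets where it falls in range. Trem2, Lgals3 and Mmp13 are the panels in which the groups do not overlap, and Naa10-KO replicate 1 is the highest array for Lyve1, Mrc1 and Cd163 and the lowest for Trem2, Lgals3 and Mmp13.

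Resident markers had higher Naa10-KO means that overlapped WT. Mrc1, which clears glycoproteins, was at 12.23, 12.09 and 11.85 in WT and 12.57, 12.29 and 11.95 in Naa10-KO. Naa10-KO replicates 1 and 2 lay above all WT arrays and replicate 3 lay among them. The log2 difference was 0.21 (SE 0.22, 95% interval -0.34 to 0.76). Lyve1 was at 10.36, 10.72 and 10.00 in WT and 11.54, 10.90 and 10.08 in Naa10-KO, the same order of arrays as for Mrc1 within Naa10-KO. Its difference was 0.48 (SE 0.42), with 0.22 in its second probe set. Lymphatic endothelium also expresses Lyve1. Of 5 measured markers of that cell type, 4 means were higher in Naa10-KO. The linear sum of all 5 was 1300 to 1490 in WT and 1602 to 2014 in Naa10-KO. Pdpn had the highest signals among them (means 9.92 in WT and 10.29 in Naa10-KO) and so weighed most in that sum. The mean log2 signal of the 5 was 6.74 to 7.12 in WT and 7.14 to 7.29 in Naa10-KO. Prox1 went the other way, at -0.99 (limma adjusted p = 0.503), with every Naa10-KO array below every WT array. It lay below the mark on all 6 arrays. The part of lymphatic cells in the Lyve1 values was not tested.

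Other resident genes showed no common direction. Timd4, a receptor for phosphatidylserine on dying cells, was at 7.72, 7.86 and 6.98 in WT and 8.32, 7.63 and 8.12 in Naa10-KO (difference 0.50, SE 0.32). Naa10-KO replicate 2 of Timd4 lay below WT replicates 1 and 2. Folr2, a folate receptor, differed by -0.05, the lectin Cd209f by -0.21 and the lectin Clec10a by 0.13. Over the 6 genes of residence and lectins, 4 means were higher, with a median of 0.17.

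Set against each other, lipid-associated and resident markers differed between genotypes in a way that rested on Trem2. On each array the mean of Trem2, Cd9 and Gpnmb was compared with the mean of Mrc1 and Lyve1, and only the change between genotypes was read, since levels of different probe sets are not comparable. Relative to the WT mean, this balance stood at -0.22, -0.06 and 0.27 on the WT arrays and at -2.26, -1.18 and -0.55 on the Naa10-KO arrays. All Naa10-KO arrays lay below all WT arrays, with a difference of -1.33. The lipid-associated mean differed by -0.99 and the resident mean, which is subtracted in the balance, by 0.35.

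With Cd9 and Gpnmb alone in place of the 3 genes, an alternative chosen after the values were seen, the difference was -0.42. Naa10-KO replicate 3, at -0.02, then lay within the WT range of -0.12 to 0.11. With low values raised to the mark, the difference with all 5 genes was -0.74. With the other Trem2 probe set, below the mark on every array and chosen when s_at and x_at probe sets were left out, it was -0.17. Without Naa10-KO replicate 1, the array with the Gapdh value of 0.55, the balance of all 5 genes differed by -0.87 and the resident mean by 0.10. No test was run on the balance, because its genes were picked with earlier results of these data known.

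**Figure D4:**
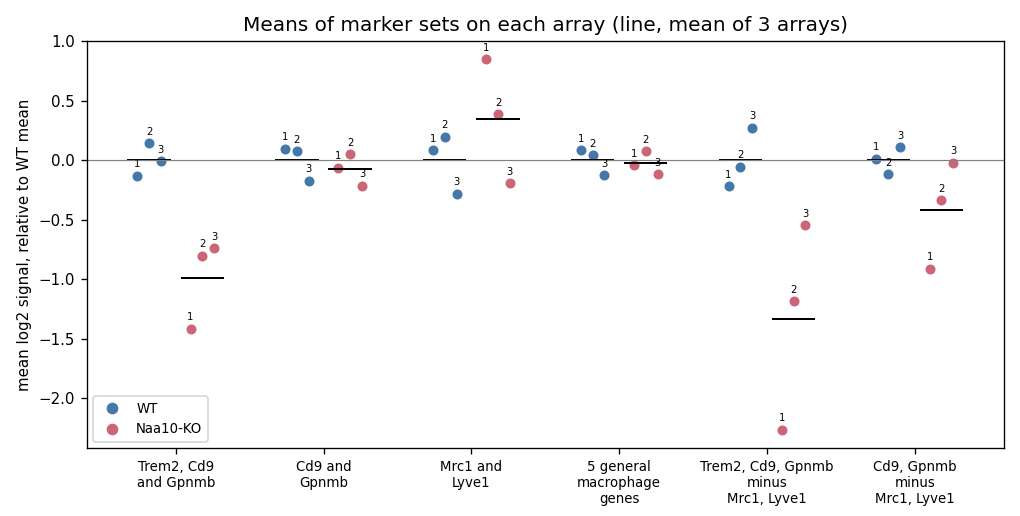
The mean log2 signal of each marker set is plotted per array relative to the WT mean, with WT in blue, Naa10-KO in red, replicate numbers above the dots and a line for the mean of 3 arrays. Naa10-KO arrays lie at -1.42 to -0.74 for Trem2, Cd9 and Gpnmb together, but at -0.21 to 0.05 for Cd9 and Gpnmb, inside or close to the WT range of -0.17 to 0.10.

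Promoter sequences are shown for the marker genes set against each other, to place letters beside their values. They are the 250 bases before the start in the RefSeq table of build GRCm38.p6, which holds entries for 29 members, these 4 among them. Lyve1 had no entry. Capitals mark GAGGAAG or its reverse complement CTTCCTC, the core to which the myeloid factor PU.1 binds.
Trem2 (chr17:48346151-48346400, plus strand): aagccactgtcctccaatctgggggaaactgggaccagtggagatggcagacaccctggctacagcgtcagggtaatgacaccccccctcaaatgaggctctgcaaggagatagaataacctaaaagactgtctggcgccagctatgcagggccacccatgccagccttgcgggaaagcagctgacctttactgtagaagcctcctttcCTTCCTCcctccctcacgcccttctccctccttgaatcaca
Cd9 (chr6:125494761-125495010, minus strand): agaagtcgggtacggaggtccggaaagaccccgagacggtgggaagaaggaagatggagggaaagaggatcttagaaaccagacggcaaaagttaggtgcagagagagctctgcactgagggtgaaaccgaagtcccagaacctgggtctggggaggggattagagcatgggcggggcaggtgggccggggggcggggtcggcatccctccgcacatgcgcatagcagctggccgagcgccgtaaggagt
Gpnmb (chr6:49036268-49036517, plus strand): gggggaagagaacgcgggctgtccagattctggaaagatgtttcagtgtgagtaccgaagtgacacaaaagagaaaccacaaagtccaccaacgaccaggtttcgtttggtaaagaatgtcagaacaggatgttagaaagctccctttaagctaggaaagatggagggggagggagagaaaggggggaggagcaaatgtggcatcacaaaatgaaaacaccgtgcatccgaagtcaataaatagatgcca
Mrc1 (chr2:14229164-14229413, plus strand): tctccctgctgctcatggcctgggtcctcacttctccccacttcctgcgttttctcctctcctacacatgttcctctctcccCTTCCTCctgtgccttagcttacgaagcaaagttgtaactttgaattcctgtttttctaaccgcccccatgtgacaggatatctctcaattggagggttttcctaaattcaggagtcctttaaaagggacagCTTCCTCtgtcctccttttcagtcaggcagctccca

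The motif lay on the minus strand in Trem2, once, starting 41 bases before the gene's start, and in Mrc1 at 2 places, with no match in Cd9 or Gpnmb. Searched on both strands, it was in 11 of 32 windows of members (34.4%) and in 10.6% of all 32851 windows of this length. Beside Trem2 and Mrc1, the genes were C1qc, Ccl8, Cd5l, Ctsk, Fcgr1, Fcgr3, Marco and Retnla. The E-box CACGTG, read by MITF and TFE factors of lysosomal genes, was in 0 of 32 member windows and 6.02% of all, and the M-box TCATGTG in 2 of 32 (C1qb and C1qc) and 3.25% of all. A match describes letters in the window and no more.

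Adaptors and receptors for antibodies and microbes gave no call between genotypes. Tyrobp and Fcer1g, the membrane adaptors that carry the signals of Trem2 and of Fc receptors, differed by 0.06 (95% interval -0.34 to 0.46) and 0.06 (-0.29 to 0.40). The Fc receptors Fcgr1 and Fcgr3 differed by -0.30 and -0.06, and the second Fcgr1 probe set by 0.03. Clec7a, the receptor for fungal glucan, differed by -0.01 (interval -0.47 to 0.44). Cd14, a receptor for bacterial lipopolysaccharide, was at 9.17, 9.41 and 9.77 in WT and 10.23, 9.98 and 9.43 in Naa10-KO. WT replicate 3 of Cd14 was above Naa10-KO replicate 3, and the difference was 0.43 (SE 0.28, limma adjusted p = 0.660).

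None of the scavenger receptors passed, and 1 of them, Cd163, varied widely among the Naa10-KO arrays. Cd163, which takes up haemoglobin, was at 11.42, 11.35 and 11.27 in WT and 12.51, 11.59 and 11.25 in Naa10-KO. The WT arrays spanned 0.15 and the Naa10-KO arrays 1.26, with replicate 1 far above the others. The difference was 0.43 (SE 0.35), and 0.07 without Naa10-KO replicate 1. Msr1, a receptor for modified lipoproteins, differed by 0.11, and its 3 other probe sets by -0.19 to 1.04. The Msr1 probe set at 1.04 lay below the mark for low signal on all 6 arrays. Marco, a receptor for particles, differed by -0.63 (SE 0.53). Its second probe set, also below the mark on all 6 arrays, differed by -1.46 (SE 0.89). Cd5l, a secreted protein of macrophages, differed by 0.76 (SE 0.72), with 4 of 6 arrays below the mark for low signal.

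Genes of alternative activation, the state driven by interleukin 4, split by signal level. Retnla, the secreted protein RELMα, had high signals in both genotypes, at 14.74 ± 0.06 and 14.83 ± 0.15 (difference 0.10, 95% interval -0.27 to 0.46). Chil3, a chitinase-like protein, was at 7.17, 7.47 and 7.60 in WT and 7.25, 7.48 and 5.62 in Naa10-KO, so that replicate 3 alone stood below WT (difference -0.63, SE 0.53). Arg1, or arginase-1, was at 5.47, 6.15 and 4.62 in WT and 2.43, 5.14 and 1.27 in Naa10-KO. Arg1 groups overlapped at Naa10-KO replicate 2, only WT replicate 2 exceeded the mark, and its difference of -2.46 (SE 1.06) became -0.10 with low values raised to the mark.

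Chemokines and their receptors, which bring monocytes into fat, had no member near the threshold. Ccl2, the main ligand of Ccr2, differed by -0.37 (SE 0.48) and Ccr2 itself by 0.17 (SE 0.22), with its 3 other probe sets at -0.01 to 0.45. In the Ccr2 probe set at 0.45, every Naa10-KO array lay above every WT array (limma adjusted p = 0.654 over all probe sets). Ccl8 was at 12.33, 12.10 and 12.30 in WT and 12.47, 11.12 and 11.77 in Naa10-KO. Naa10-KO replicate 1 of Ccl8 was the highest of all arrays while the other 2 lay below every WT array (difference -0.46, SE 0.36). Ccl6 differed by 0.22. Cx3cr1, the fractalkine receptor, differed by 0.27, with 5 of 6 arrays below the mark.

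The 3 chains of complement C1q, which macrophages make in tissues, all had intervals within 2-fold either way. C1qa differed by -0.18 (95% interval -0.60 to 0.23), C1qb by 0.07 (-0.36 to 0.50) and C1qc by -0.07 (-0.68 to 0.54). The 2 other C1qb probe sets both differed by -0.08.

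Of the 40 members, 12 had more than 1 probe set, with 18 probe sets beside those used. Among those 18, 7 had a difference of the opposite sign, in 6 genes. In limma over 34945 single-gene probe sets, 0 of the 58 member probe sets were called, as were 0.00% of all, and 3 of the 58 had an unadjusted p under 0.05 (2864 of all, 8.20%).

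**Figure D5:**
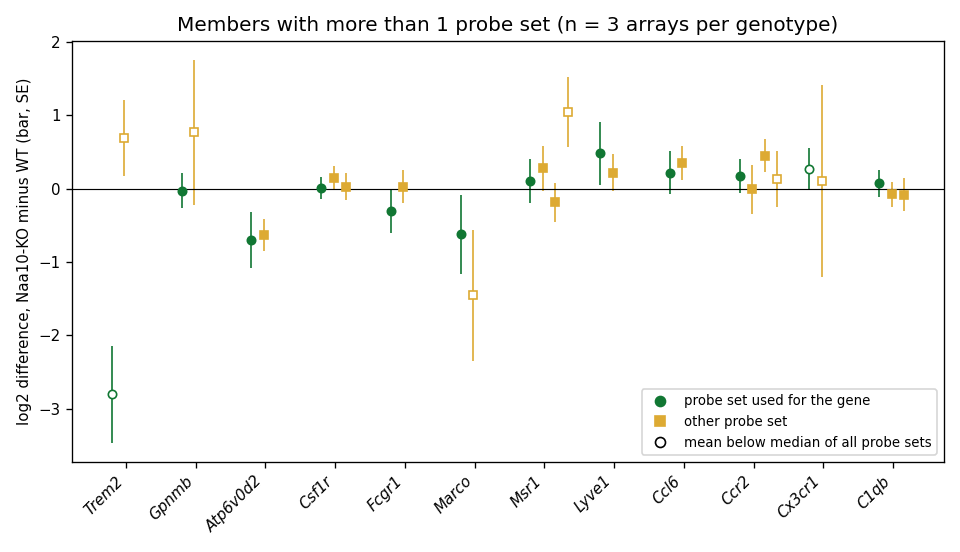
The log2 difference of every probe set is plotted for the 12 macrophage genes with more than 1, with green circles for the probe set used, yellow squares for others, open symbols for a mean under the mark for low signal and bars for the SE. The Trem2 probe sets stand at -2.80 and 0.69, both open, whereas those of Atp6v0d2, Csf1r, Lyve1 and Ccl6 lie on the same side of 0.

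Variation between animals of a genotype was shared among members. Naa10-KO replicate 1 was the highest of the 6 arrays for 15 of 40 members (37.5%, against 20.2% of all genes), and Naa10-KO replicate 3 was the lowest for 14 (35.0%, against 13.9%) and the highest for 0. WT replicate 3 was the lowest for 13 (32.5%, against 17.0%). The median deviation of members from their mean over 6 arrays was 0.12, 0.06 and -0.23 on Naa10-KO replicates 1 to 3 and 0.08, 0.09 and -0.13 on WT replicates 1 to 3. Role groups did not move alike on Naa10-KO replicate 1, where the median deviation was 0.63 for scavenger receptors, 0.37 for residence and lectins and -0.57 for lipid and lysosome genes.

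Other genes of these pathways, 70 measured of 79 listed, also gave no calls in limma. None was higher or lower past the threshold, against 0.115% of all genes, and 2 (2.86%) had an unadjusted p under 0.05, against 9.20%. The median difference was -0.07, against 0.01 over all genes. Means were lower for 43 of the 70 and for 8844 of all 18193 genes. Lysosome and lipid handling genes had lower means in 14 of 17, with a median of -0.08. Among them Ctsd, the protease cathepsin D, averaged 13.95 ± 0.13 in WT and 13.23 ± 0.40 in Naa10-KO, Fabp5, a fatty acid carrier of macrophages and adipocytes, differed by -0.56 and Grn, the lysosomal protein progranulin, by -0.30. Naa10-KO arrays of Ctsd and Fabp5 all lay below the WT arrays, while limma adjusted p-values were 0.503 and 0.563. That held for 3 of the 17 (17.6%) and for 4 of all 70 (5.71%), against 8.14% of all genes. In 1 of the 70 (1.43%) every Naa10-KO array lay above every WT array, against 10.0% of all genes. Of 8 kinases and partners below Tyrobp and Fcer1g, 7 means were lower (median -0.17), with Lat2 at -0.36 and Syk, the kinase recruited by both adaptors, at -0.19. Macrophage transcription factors had 5 of 8 lower means, with Spi1, which encodes PU.1, at -0.27, Irf5 at -0.33 and Mitf, a regulator of lysosomal genes, at 0.44 with all Naa10-KO arrays above WT (adjusted p = 0.547).

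Ligands of the member receptors had a median difference of 0.04 over 7 genes. Ccl7 and Ccl12, further ligands of Ccr2, differed by -0.48 and 0.45, and Il34, a ligand of Csf1r, by -0.20. Inflammatory mediators had a median of -0.03 over 15 genes. Tnf, the cytokine, differed by -2.56 (SE 0.81) with all 6 arrays below the mark, Il1rn, the interleukin 1 antagonist, by -1.02 and the costimulatory Cd80 by 0.71. Genes of MHC class II, which presents antigen, had a median of 0.06 over 6, and the other myeloid and leukocyte genes a median of -4.67e-03 over 9, with Aif1 at -0.47.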

How the data were processed

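Values are the log2 signals of 45101 probe sets on 6 arrays, as the authors deposited them. On the linear scale the mean after trimming 2% at each end was 500 on every array, which shows a global scaling of each array. The software, background correction and summary method are not given in the sources used here. Medians of the arrays were 5.78 to 5.96, correlations between arrays lay between 0.903 and 0.917, and values were used with no further normalization or filter. Detection calls were not used, and low signals may therefore be background.

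Probe sets were named by a platform annotation of 2016. Leaving out 64 controls, it gave 1 gene for 34945, several for 932 and none for 9160. Gene identifiers of 34741 matched RefSeq (assembly GRCm38.p6), which changed 0 symbols. Only probe sets with 1 gene were used.

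The test of genotype was limma 3.58.1 under R 4.3.3 (lmFit, eBayes, no other term, 2-sided), with Benjamini-Hochberg adjustment over all genes and a threshold of 0.05. The step was also run on simulated data, with shifts larger than nearly all member differences, so that run does not cover differences of their size. Errors are SD over n = 3 arrays or limma's SE, and the number of arrays limits the precision. P-values measure the spread between mice. Values on every array are given for Trem2, Cd9, Gpnmb, Mrc1 and Lyve1, then for members by unadjusted p up to 16, and up to 3 genes per list of other pathway genes are named by unadjusted p. Members, lists, tests and alternatives were chosen with earlier results of these data known. Alternatives were other normalizations, a filter and a floor on low values, other probe set rules, eBayes options, array weights, a replicate block and each array left out.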

Additional observations from a re-analysis of the deposited data

How the results depend on the processing

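The count of called members stayed at 0 under all 16 alternatives, with a lowest adjusted p of 0.0725 (Trem2, trend and robust options), as did that of the other pathway genes. The median difference of members ranged from -0.11 to 0.08 with 1 array left out and from -0.02 to 0.01 otherwise, and the resident difference from 0.10 to 0.62 and from 0.28 to 0.37. The lipid-associated difference was -0.40 with the floor, -0.27 with the mean of all probe sets, 0.18 without x_at and s_at probe sets and -0.076 without Trem2 (added after seeing the data), and ranged from -1.11 to -0.77 with 1 array left out. Its balance against resident markers was -0.74, -0.55, -0.17 and -0.42 under these settings in the same order, and -1.72 to -0.87 with 1 array left out. Members whose groups did not overlap numbered 5 of 40 with the mean of 5 macrophage genes subtracted, against 14.7% of all genes, and 4 to 12 with 1 array left out, where 25.6% to 31.7% of all genes did not overlap. Trem2 reversed to 0.69 without x_at and s_at probe sets. Gpnmb, near 0, reversed to 0.37 with the mean of all probe sets, 0.07 with array weights and 4.56e-04 with 5 macrophage genes subtracted, and ranged from -0.22 to 0.16 with 1 array left out. Of the 40 members, 26 kept their sign under every alternative in which they were measured. The alternatives for members beyond the 16 chosen by rule were added after seeing the data. Beside Trem2 and Gpnmb, 12 with a main difference of at most 0.22 in size did not. C1qb was at -0.029, -0.078 and -0.016 with the mean of all probe sets, without x_at and s_at probe sets and with array weights. Clec7a was at 0.054 with array weights and 0.015 with 5 macrophage genes subtracted, and Ctss at -0.013 with array weights. Csf1r was at -4.70e-03 and Retnla at -0.022 with quantile normalization. With 1 array left out, C1qb ranged from -0.012 to 0.19, C1qc from -0.26 to 0.12, Ccl6 from -0.024 to 0.45, Clec10a from -6.22e-05 to 0.25, Clec7a from -0.096 to 0.14, Csf1r from -0.043 to 0.037, Ctss from -0.11 to 0.21, Fcgr3 from -0.27 to 0.075, Folr2 from -0.31 to 0.17, Msr1 from -0.10 to 0.31 and Tyrobp from -0.048 to 0.12. Same-numbered arrays did not deviate together (correlations -6.71e-03, -5.74e-03 and -0.03), and no array correlated best with its own number. With the replicate block, 0 members and 0 genes were called, against 0 and 21, and the median was -0.02. Genes called in all numbered 0 to 137 over the alternatives. The 3 arrays per genotype and signals near the low end limit Trem2, Mmp13, Arg1, Cd5l and Cx3cr1.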
